A study of Mus musculus with 12 samples.

Results

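The fibroblast growth factor (FGF) genes measured here were 22 ligands, 5 receptors, 8 feedback inhibitors and 1 adaptor, 36 of the 18193 genes with a named probe set. They were taken by symbol: every Fgf ligand, Fgfr1 to Fgfr4 and Fgfrl1, every Spry and Spred, Dusp6 and Frs3. No probe set carried Frs2 as its single symbol. Each gene was read at its brightest probe set, by the mean of all 12 arrays, and 21 of the 36 genes had more than 1 probe set. The rule that chose the genes used no expression difference, but it was set with earlier results of these data known.

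The arrays came from mouse embryos at embryonic day 8.0, on a mixed C57BL/6 and FVB background, in 4 groups of 3 arrays. They carried either wild-type or mutant ER71, now named Etv2, an ETS transcription factor needed for blood and endothelium. All of them belonged to an ER71 EYFP line, and their trypsin-released cells were separated by flow sorting into those with and without EYFP, an enhanced yellow fluorescent protein. The 4 groups are called wild-type positive, wild-type negative, mutant positive and mutant negative cells. The labels give neither the deleted part of Etv2, nor the sequences that drive EYFP, nor whether the 3 samples of a group were separate animals or pools. P-values rest on how far samples lie apart within their groups, taken over all 4 groups together in the main fit. Levels of the Y-linked gene Eif2s3y were 4.16 to 10.81 in wild-type positive and 4.48 to 11.23 in wild-type negative cells. The 3 samples of each wild-type group therefore did not all come from the same embryos, and their spread is not technical only. In mutants Eif2s3y was 4.11 to 4.48 in positive and 4.23 to 4.32 in negative cells, which does not tell embryos apart. The spread there may be technical only, which was not tested. It includes a yolk sac endoderm marker list with means of 6.13 to 9.64 over the mutant positive arrays.

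FGF ligands are secreted proteins that bind receptor tyrosine kinases together with heparan sulphate. The activated receptor signals through FRS adaptors to the Ras-ERK cascade, which in many tissues turns on its own inhibitors, the Sprouty (Spry) and Spred proteins and the ERK phosphatase Dusp6. In the early embryo, FGF ligands come from the primitive streak and tail bud, the hindbrain, the pharyngeal region and the heart-forming mesoderm. Members with numbers 11 to 14 are FGF homologous factors, which stay inside the cell and do not act as ligands. In the counts given here they are included among the ligands, by their symbols.

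The marker lists set the cells apart. Etv2 itself was 10.93 ± 0.37 (SD, n = 3; log2 RMA value, as are all levels here) in wild-type positive cells and 7.31 ± 0.07 to 7.64 ± 0.18 in the other groups. All 12 endothelial markers rose in wild-type positive over wild-type negative cells, and 11 of 12 fell in mutant positive against wild-type positive cells. Their list mean was 9.80 to 10.07 on the wild-type positive arrays, 7.41 to 7.55 on the mutant positive arrays and 6.84 to 7.01 on the 6 negative arrays. Of 7 primitive erythroid markers, 6 rose in wild-type positive over wild-type negative cells and 6 fell in mutant positive against wild-type positive cells. All 10 cardiac markers rose in mutant positive cells, against both wild-type positive and mutant negative cells. Lateral plate and allantois markers rose in the same 2 comparisons, 5 of 6 in each. Of all genes, 8.24% were called between wild-type positive and negative cells, 5.36% between those of mutants and 7.97% between the positive groups. Neural markers fell in positive cells, 5 of 8 in wild types and 7 of 8 in mutants, and so did those of primitive streak and tail bud, 5 of 7 and 4 of 7. The mean levels of the otic and hindbrain, somite, epithelium and endoderm, and yolk sac endoderm lists were also lower in positive cells of both genotypes. A gene low in positive cells thus goes with all these lists, and the list set beside it below is not singled out by the values. Mutant positive array 1 stood apart in the yolk sac endoderm list, with a mean of 9.64 against 6.31 and 6.13. The wild-type arrays numbered 1 stood apart in Xist, with 10.33 and 8.19 against 13.36 to 13.98 on the other 10 arrays, and in the Y-linked gene Eif2s3y, with 10.81 and 11.23 against 4.11 to 4.53. In a bulk sorted sample, fewer cells of a type and less RNA per cell cannot be told apart.

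**Figure D1:**
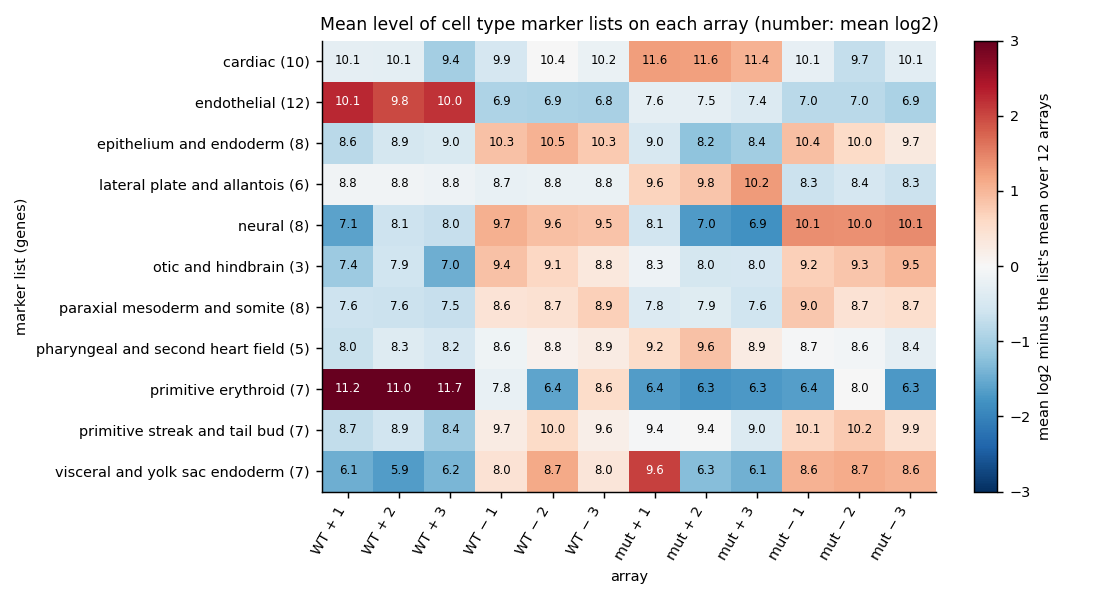
Mean log2 value of each marker list (rows, with the number of genes) on each of the 12 arrays (columns; + and − are the EYFP fractions, mut is mutant), coloured by its distance from the list's mean over all arrays. The endothelial and erythroid lists are high on the wild-type positive arrays, and the cardiac and lateral plate lists on the mutant positive arrays. Mutant positive array 1 has a high yolk sac endoderm list.

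The promoter windows of 5 members are shown, because the mutated gene encodes an ETS factor. These genes either fell in positive cells of both genotypes (Fgf3 and Fgf18) or differed between mutant and wild-type positive cells (Fgf3, Fgfr2, Fgfr3 and Fgfrl1). Fgf15 also fell in both genotypes, but no window was found for it. Each window shown runs 5′ to 3′ from 250 bases before to 50 bases after a RefSeq start site (GRCm38.p6), and Fgfr3 has 2 windows. Capitals mark GGAA, the core of ETS sites, or its reverse complement TTCC, a search added after the values had been seen.
Fgf3, chr7:144838362-144838661, plus strand: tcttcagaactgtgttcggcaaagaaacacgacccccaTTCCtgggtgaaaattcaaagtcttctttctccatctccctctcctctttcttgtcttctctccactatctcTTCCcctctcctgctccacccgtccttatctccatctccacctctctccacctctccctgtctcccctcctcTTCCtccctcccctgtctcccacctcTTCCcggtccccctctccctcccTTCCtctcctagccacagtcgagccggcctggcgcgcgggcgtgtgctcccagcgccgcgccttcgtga
Fgf18, chr11:33147351-33147650, minus strand: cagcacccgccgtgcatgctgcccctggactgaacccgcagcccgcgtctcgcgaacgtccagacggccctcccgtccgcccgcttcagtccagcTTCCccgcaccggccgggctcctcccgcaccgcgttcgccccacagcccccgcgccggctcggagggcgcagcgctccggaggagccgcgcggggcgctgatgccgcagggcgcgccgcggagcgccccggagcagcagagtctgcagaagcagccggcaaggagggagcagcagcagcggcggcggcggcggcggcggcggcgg
Fgfr2, chr7:130266759-130267058, minus strand: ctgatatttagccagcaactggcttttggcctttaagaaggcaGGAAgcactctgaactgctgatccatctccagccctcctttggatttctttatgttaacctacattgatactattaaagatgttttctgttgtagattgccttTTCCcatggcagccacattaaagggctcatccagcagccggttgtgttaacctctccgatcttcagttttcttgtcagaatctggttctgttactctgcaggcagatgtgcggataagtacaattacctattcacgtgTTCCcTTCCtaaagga
Fgfr3, chr5:33721474-33721773, plus strand: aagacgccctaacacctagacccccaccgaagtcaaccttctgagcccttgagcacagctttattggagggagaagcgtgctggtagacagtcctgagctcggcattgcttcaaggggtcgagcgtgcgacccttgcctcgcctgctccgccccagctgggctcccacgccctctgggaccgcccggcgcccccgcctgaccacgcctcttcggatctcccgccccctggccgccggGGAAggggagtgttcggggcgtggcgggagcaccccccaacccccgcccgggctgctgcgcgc
Fgfr3, chr5:33722056-33722355, plus strand: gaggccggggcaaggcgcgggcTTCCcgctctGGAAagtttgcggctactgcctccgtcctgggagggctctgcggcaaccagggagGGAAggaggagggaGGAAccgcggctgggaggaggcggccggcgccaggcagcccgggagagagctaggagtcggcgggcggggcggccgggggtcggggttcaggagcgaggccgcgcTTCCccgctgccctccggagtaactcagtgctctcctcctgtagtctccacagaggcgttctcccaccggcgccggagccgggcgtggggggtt
Fgfrl1, chr5:108693979-108694278, plus strand: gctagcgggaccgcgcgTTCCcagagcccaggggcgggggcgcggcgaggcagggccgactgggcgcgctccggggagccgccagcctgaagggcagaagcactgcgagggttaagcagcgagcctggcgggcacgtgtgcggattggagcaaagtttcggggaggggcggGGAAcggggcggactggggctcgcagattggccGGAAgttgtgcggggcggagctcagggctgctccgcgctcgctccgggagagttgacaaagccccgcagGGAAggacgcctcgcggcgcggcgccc
The core occurred 5 times in the Fgf3 window, 1 time in that of Fgf18, 1 and 5 times in those of Fgfr3 and 4 times each in those of Fgfr2 and Fgfrl1, against a median of 3 over all 32851 windows, 96% of which hold at least 1. The longer ETS sequence ACCGGAAGT, searched on both strands, was in 0 of the 34 windows found for 27 members and in 1.1% of all windows. The Capicua sequences TGAATGAA and TGAATGGA were in 2 and 1 of the 34 windows (1.3% and 1.21% of all), and the AP-1 sequence TGACTCA in 1 (5.2% of all). These matches describe the letters of the windows and do not show binding.

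Between positive and negative cells of wild-type embryos, 7 of the 36 FGF genes fell, 0 rose and 29 did not pass (19.4% called, against 8.24% of all genes, with 4.63% rising and 3.61% falling). The 7 were the ligands Fgf3, Fgf8, Fgf15 and Fgf18, the intracellular factor Fgf13, the receptor Fgfr2 and the inhibitor Spry1. In mutant embryos the same comparison gave 3 falls, Fgf3, Fgf15 and Fgf18, and 1 rise, Fgfr3 (11.1% called, against 5.36% of all genes, with 3.07% rising and 2.29% falling). The median difference over the 36 genes was -0.12 log2 in wild types and -0.13 in mutants, against -0.02 and -0.03 over all genes. The arrays of positive and negative cells did not overlap for 12 of the 36 genes in wild types, against 25.2% of all genes. Of these, 10 were lower in positive cells and 2, Dusp6 and Fgf5, higher (13.3% and 11.9% of all genes). In mutants 14 did not overlap, against 19.5% of all genes, 12 lower and 2 higher (11% and 8.48% of all genes). Calls are by limma with Benjamini-Hochberg adjustment over 18193 genes, at an adjusted p under 0.05, and each difference is given with its moderated standard error (SE) from that fit.

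**Figure D2:**
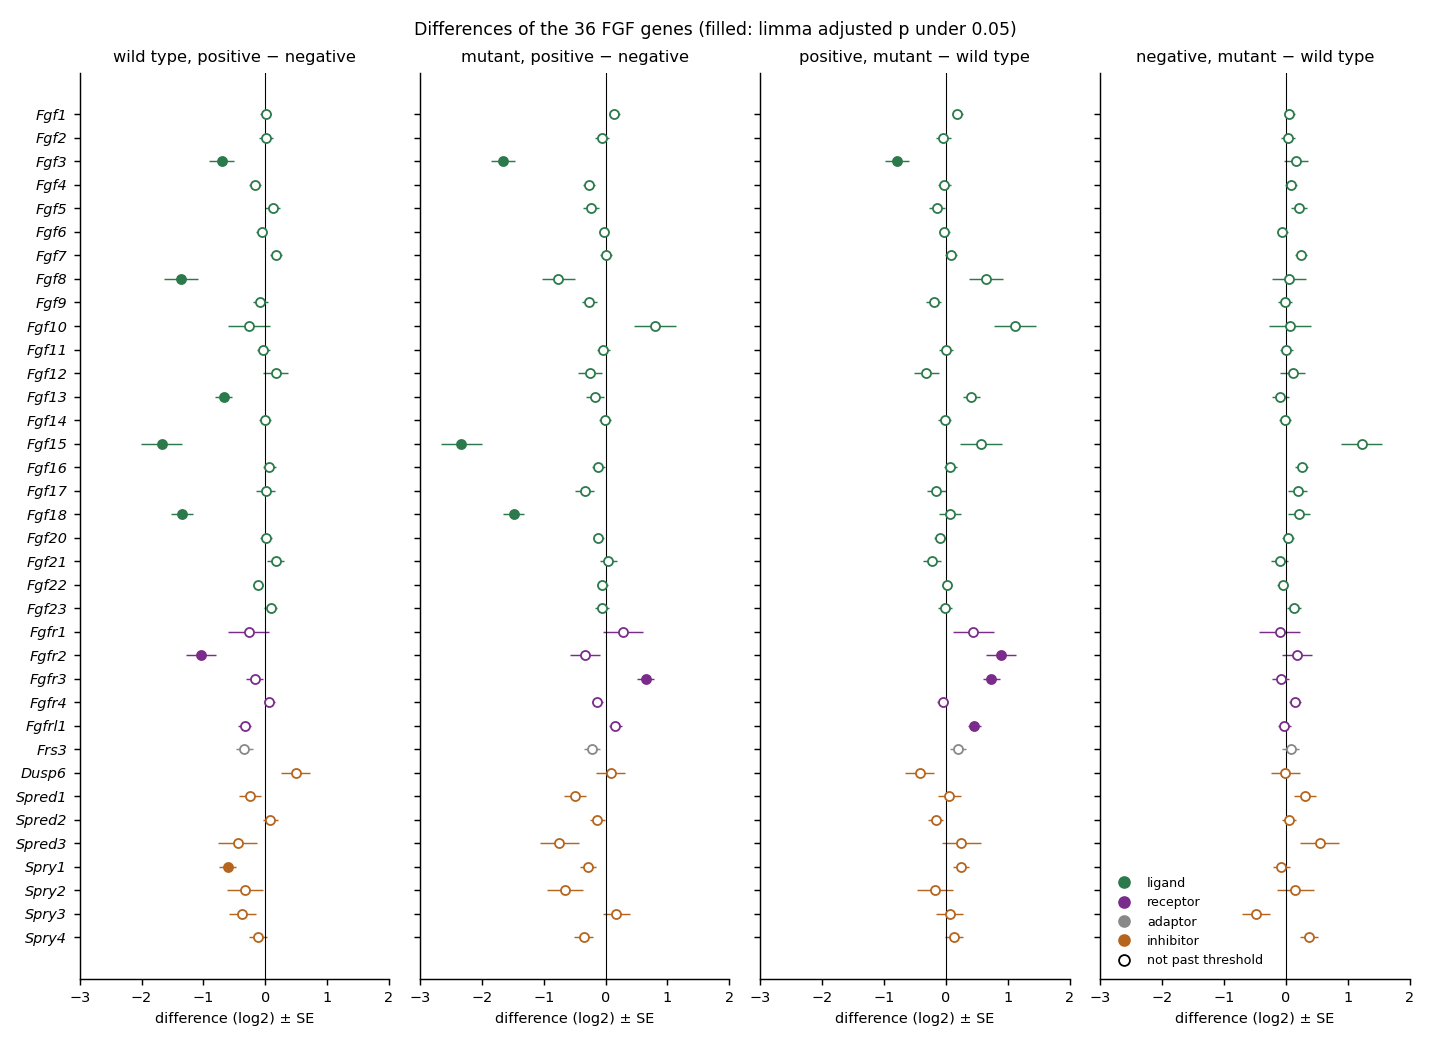
Log2 difference with its SE for each of the 36 FGF genes (rows, coloured by role) in 4 comparisons of 3 against 3 arrays; filled points passed an adjusted p of 0.05. The called ligands all lie left of 0 in the sort comparisons, the 3 receptors called between mutant and wild-type positive cells lie right of 0, and no gene passed in negative cells.

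Fgf15, an endocrine-type ligand known from the embryonic neural tube, had the largest fall of the 36 genes in both genotypes. Its values were 6.75, 7.32 and 6.76 on the wild-type positive arrays and 8.30, 8.67 and 8.88 on the wild-type negative arrays, and 8.11, 6.97 and 7.45 on the mutant positive and 10.01, 9.17 and 10.35 on the mutant negative arrays. Positive and negative arrays did not overlap in either genotype. Fgf15 fell by 1.68 ± 0.33 log2 in wild types (3.2-fold lower; adjusted p = 0.00865) and by 2.33 ± 0.33 in mutants (5.04-fold lower; adjusted p = 0.00189). The wild-type call was lost when both wild-type arrays numbered 1 were left out (adjusted p = 0.0592). On mutant positive array 1 Fgf15 was highest among the positive arrays. That array also had the highest neural list mean of its group, 8.09 against 6.98 and 6.86, and the high yolk sac endoderm list mean of 9.64. Arrays ranked alike by Fgf15 and by the neural list in wild-type positive and mutant negative cells. In wild-type negative cells the order was reversed, with neural means of 9.74, 9.58 and 9.53 on arrays 1 to 3. Over all arrays the neural list mean was 7.08 to 8.06 against 9.53 to 9.74 in wild-type positive and negative cells, and 6.86 to 8.09 against 10.03 to 10.09 in mutants; its part in the Fgf15 values was not tested.

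Fgf18, a ligand needed for skeletal and lung development, had 6.45, 5.88 and 6.25 in wild-type positive, 7.63, 7.40 and 7.60 in wild-type negative, 6.45, 6.15 and 6.20 in mutant positive and 8.02, 7.42 and 7.84 in mutant negative cells. The 6 positive arrays all lay below the 6 negative arrays. Fgf18 fell by 1.35 ± 0.18 log2 in wild types (adjusted p = 0.000555) and by 1.49 ± 0.18 in mutants (adjusted p = 0.000691). Mutant and wild-type positive cells differed by 0.07 log2 (95% confidence interval -0.31 to 0.46). The somite list was also lower in positive cells, as were the neural, tail bud and other lists named above. Its means were 7.54 to 7.61 against 8.63 to 8.94 in wild types and 7.64 to 7.87 against 8.66 to 9.05 in mutants. The part of the somite list was not tested.

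Fgf3, a ligand of the hindbrain and otic region, had 7.85, 7.38 and 7.36 in wild-type positive, 8.35, 8.38 and 7.98 in wild-type negative, 6.96, 6.90 and 6.37 in mutant positive and 8.63, 8.19 and 8.39 in mutant negative cells. Mutant positive arrays were the lowest, wild-type positive arrays next, and negative arrays of both genotypes the highest, with no overlap between these 3 levels. Fgf3 fell by 1.66 ± 0.20 log2 in mutant positive against mutant negative cells (adjusted p = 0.00067). In wild types it fell by 0.71 ± 0.20 (adjusted p = 0.0492), but the call was lost under 13 of 23 alternatives, among them leaving out any of 9 single arrays (wild-type positive 2 or 3, wild-type negative 1 or 2, mutant positive 1 or 2, mutant negative 1, 2 or 3; adjusted p 0.0514 to 0.168). Mutant against wild-type positive cells were lower by a difference of -0.79 ± 0.20 (adjusted p = 0.0315), which did not pass once array 1 of the wild-type positive group (0.104) or array 3 of the mutant positive group (0.0988) was dropped. The otic and hindbrain list of 3 genes had means of 7.04 to 7.90 in wild-type and 7.98 to 8.35 in mutant positive cells, and of 8.82 to 9.50 on the negative arrays, and its part was not tested. The change of the sort difference with genotype was -0.95 ± 0.28 and did not pass (adjusted p = 0.124). A dimmer probe set of Fgf3 gave -0.82 ± 0.14 for mutant against wild-type positive cells and -1.23 ± 0.20 for the interaction (adjusted p = 0.00682 and 0.00976 over 34945 probe sets), and the dimmest gave -0.24 and -0.22 and did not pass.

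Fgf8, a ligand of the tail bud, pharyngeal region and heart field, had 5.73, 5.92 and 6.23 in wild-type positive, 6.97, 7.46 and 7.55 in wild-type negative, 6.36, 7.26 and 6.21 in mutant positive and 7.46, 7.63 and 7.04 in mutant negative cells. No overlap was seen in wild types, whereas mutant positive array 2 reached into the range of the negative arrays. Fgf8 fell by 1.36 ± 0.27 log2 in wild types (adjusted p = 0.00843). In mutants the difference was -0.76 ± 0.27 (adjusted p = 0.165). It passed with same-numbered positive and negative arrays of a genotype as a replicate block (adjusted p = 0.0154), and without mutant positive array 2 it was -1.09 (adjusted p = 0.0235). The primitive streak and tail bud list was lower in positive cells as well, at 8.38 to 8.88 against 9.64 to 10.02 in wild types and 9.03 to 9.44 against 9.92 to 10.23 in mutants, and its part was not tested.

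Fgf10, the ligand of the second heart field and of budding organs, had 7.36, 7.96 and 7.69 in wild-type positive, 7.94, 7.995 and 7.85 in wild-type negative, 9.13, 9.46 and 7.76 in mutant positive and 7.99, 7.82 and 8.16 in mutant negative cells. Mutant positive arrays 1 and 2 stood above the other 10, while array 3 lay among them. The difference of mutant from wild-type positive cells was 1.11 ± 0.34 log2 (adjusted p = 0.072). Without mutant positive array 3 it was 1.63 (adjusted p = 0.000376), and the interaction was then 1.57 (adjusted p = 0.00591) against 1.05 ± 0.48 with all arrays (adjusted p = 0.412). Array 3 is the one that departs from its group, so these values without it give no support of their own. Under 21 of 22 alternatives the difference between the positive groups stayed uncalled. Over all 22 it went down to 0.78, and the limma adjusted p up to 0.242. Of the 3 genes other than FGF ligands in the pharyngeal and second heart field list, Tbx1 was lowest on mutant positive array 3 (9.74, 10.50 and 9.31), whereas Isl1 (11.19, 10.82 and 11.36) and Eya1 (9.79, 9.76 and 10.04) were highest there. Their part in the Fgf10 values was not tested.

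Fgf13 had 8.98, 9.13 and 8.63 in wild-type positive, 9.60, 9.67 and 9.49 in wild-type negative, 9.27, 9.51 and 9.19 in mutant positive and 9.35, 9.51 and 9.61 in mutant negative cells. The wild-type positive arrays were the lowest. Fgf13 fell by 0.67 ± 0.14 log2 in wild types (adjusted p = 0.0114), a call that did not hold once array 2 of the wild-type negative group (0.0525) or both wild-type arrays numbered 1 (0.0804) were dropped, or with the mean of its 2 probe sets (0.2). In mutants the sort difference was -0.17 (95% confidence interval -0.48 to 0.14), and the interaction of 0.51 ± 0.20 did not pass (adjusted p = 0.298). The other probe set of Fgf13, with a mean of 5.18, showed no such difference in wild types (0.12, adjusted p = 0.838).

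**Figure D3:**
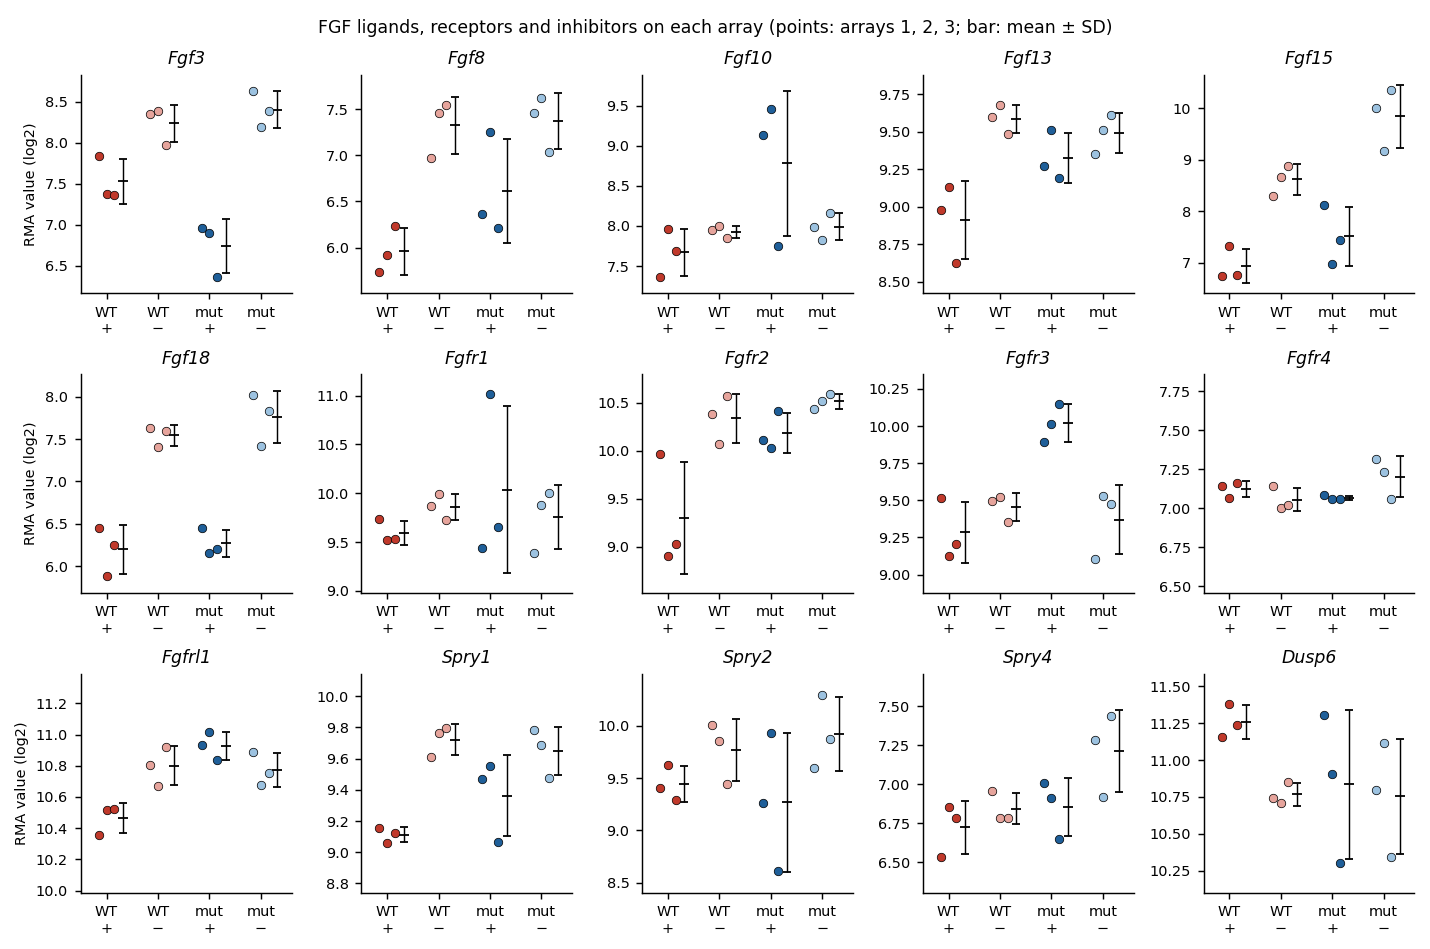
Log2 RMA value on each array (points, arrays 1 to 3 from left to right) for 15 FGF genes in the 4 groups, with the mean ± SD of 3 arrays beside them; each panel has its own axis. Fgf15, Fgf18 and Fgf3 are low in both positive groups, Fgfr3 is high in mutant positive cells, and single arrays stand apart for Fgf10, Fgfr1 and Fgfr2.

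The remaining 16 ligands did not pass at their brightest probe set in any comparison. Of these, Fgf2, Fgf14, Fgf16 and Fgf20 lay below the 25th percentile of their array (5.62 to 5.69) on all 12 arrays. For 4 of the 16, Fgf4, Fgf9, Fgf14 and Fgf17, a dimmer probe set passed in at least 1 comparison; these were chosen after their values were seen. Over all 36 genes, 6 of 44 dimmer probe sets passed in the wild-type sort comparison and 7 of 44 in the mutant one. The share among dimmer probe sets of all genes was not computed, so whether these counts are high cannot be said.

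Fgf9, a ligand needed for lung and testis development, was represented by 2 probe sets of almost equal mean, 7.202 and 7.191. The brighter varied between 6.95 and 7.48 over the 12 arrays. The other had 6.95, 6.07 and 5.31 in wild-type positive, 8.72, 8.03 and 8.72 in wild-type negative, 6.28, 6.02 and 5.198 in mutant positive and 8.15, 8.33 and 8.51 in mutant negative cells. It was lower in positive cells by differences of -2.38 ± 0.39 log2 in wild types and -2.50 ± 0.39 in mutants (limma over all probe sets, adjusted p = 0.0037 and 0.00467).

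Fgf17, a relative of Fgf8, varied between 6.14 and 6.84 at its brighter probe set. At the other, with a mean of 5.32, it had 4.48, 4.52 and 4.71 in wild-type positive, 6.02, 6.80 and 6.70 in wild-type negative, 4.24, 4.17 and 4.19 in mutant positive and 6.35, 6.27 and 5.34 in mutant negative cells. The sort differences there were -1.94 ± 0.26 in wild types and -1.79 ± 0.26 in mutants (adjusted p = 0.000986 and 0.00341 over all probe sets).

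Fgf14, an intracellular factor, had 4 probe sets, with means of 4.20 to 5.27. The third in brightness (mean 4.97) had 4.604, 5.06 and 5.05 in wild-type positive, 5.33, 5.36 and 4.82 in wild-type negative, 4.68, 4.52 and 4.34 in mutant positive and 5.27, 5.18 and 5.44 in mutant negative cells. The mutant groups did not overlap, and their difference was -0.78 ± 0.17 (adjusted p = 0.0326 over all probe sets), against -0.01 at the brightest. The mean of all 4 probe sets gave -0.47 in mutants (adjusted p = 0.0118).

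Fgf4, a ligand of the primitive streak, had 4 probe sets. The brightest lay between 7.95 and 8.41 on all arrays. At the second (mean 6.76) the values were 6.00, 6.03 and 5.76 in wild-type positive, 7.57, 7.65 and 7.35 in wild-type negative, 5.76, 6.07 and 6.28 in mutant positive and 7.56, 7.14 and 7.95 in mutant negative cells, with sort differences of -1.59 ± 0.20 and -1.51 ± 0.20 (adjusted p = 0.00057 and 0.00202). The third gave -1.38 and -1.22 and also passed, while the dimmest (mean 5.79) was higher in wild-type positive cells by 0.62 ± 0.11 (adjusted p = 0.00782). Probe sets of Fgf4, Fgf9, Fgf14 and Fgf17 thus disagreed, and which of them measures the transcript cannot be settled from these values.

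**Figure D4:**
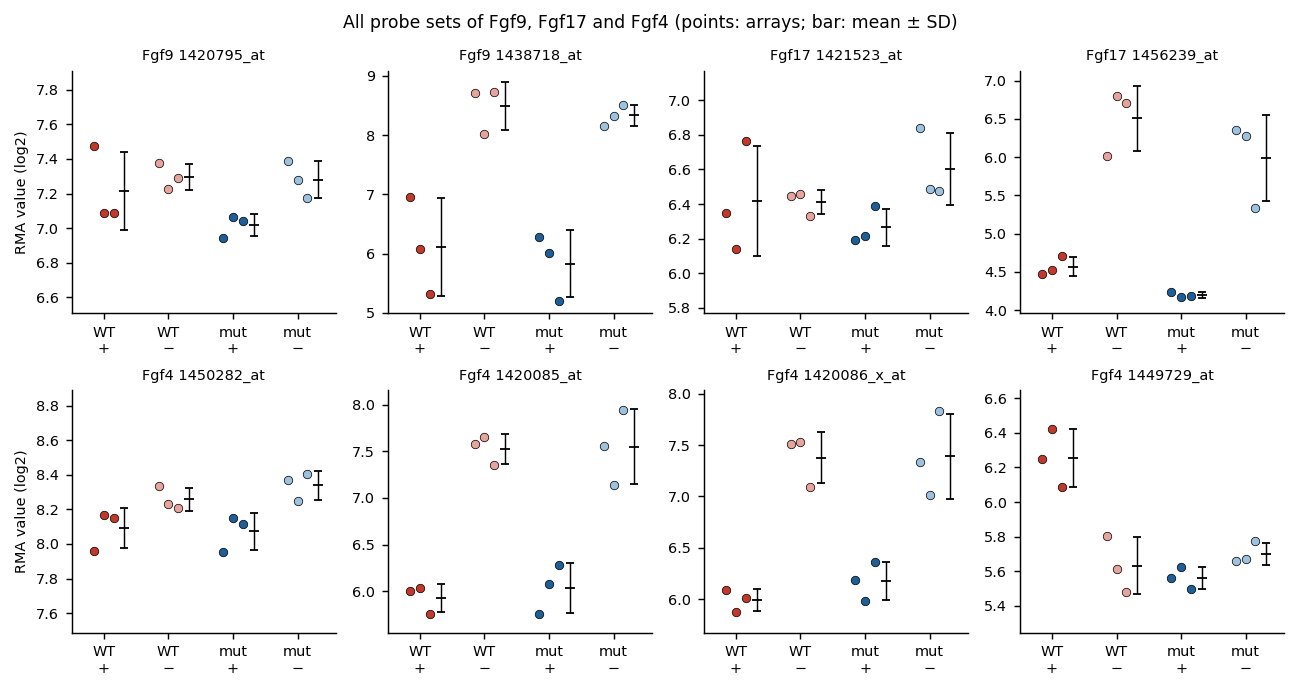
Log2 RMA values of every probe set of Fgf9, Fgf17 and Fgf4 on each array (points), with the mean ± SD of 3 arrays in each of the 4 groups; each panel has its own axis. The brightest probe set of each gene shows no called difference, whereas 1 dimmer probe set each of Fgf9 and Fgf17 and 2 of Fgf4 are lower in both positive groups.

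Between mutant and wild-type positive cells 3 of 5 receptors rose, 1 of 22 ligands fell and 0 of 8 inhibitors passed. Over all 36 genes 4 passed, 11.1% against 7.97% of all genes (4.23% rose and 3.74% fell), and the median difference was 0.04 log2 against 0.01. The arrays of the 2 groups did not overlap for 8 of the 36 genes, against 25.7% of all genes, with 5 higher and 3 lower in mutants (13.8% and 11.8% of all genes). In a fit of these groups alone Fgfr3 was the only one of the 36 to pass, and without both wild-type arrays numbered 1 Fgfr2 and Fgfr3 passed. No test compared the receptors with the other members.

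Fgfr3, an FGF receptor of epithelium and skeletal tissues, had 9.52, 9.13 and 9.20 in wild-type positive, 9.49, 9.52 and 9.35 in wild-type negative, 9.89, 10.02 and 10.15 in mutant positive and 9.11, 9.53 and 9.47 in mutant negative cells. The 3 mutant positive arrays were above the other 9. Fgfr3 rose by 0.74 ± 0.14 log2 over wild-type positive cells (adjusted p = 0.00777) and by 0.65 ± 0.14 over mutant negative cells (adjusted p = 0.0198). The second call did not hold without mutant positive array 2 (0.0619) or 3 (0.0755) or mutant negative array 1 (0.0623). In wild types the sort difference was -0.17 ± 0.14 (adjusted p = 0.613). The interaction was 0.82 ± 0.20 and did not pass (adjusted p = 0.057), but it passed with the replicate block within genotype (0.0292) and without wild-type positive array 1 (0.0281). The dimmer Fgfr3 probe set (mean 6.98) gave -0.06 between the positive groups (adjusted p = 0.889), and the mean of both gave 0.34 (adjusted p = 0.174) there and did not pass against mutant negative cells (adjusted p = 0.302). The cardiac list was high on the same arrays, at 11.41 to 11.64 in mutant positive cells against 9.37 to 10.38 on the other 9. The lateral plate and allantois list was high there too, at 9.61 to 10.22. That list had 8.80 to 8.85 in wild-type positive, 8.74 to 8.76 in wild-type negative and 8.30 to 8.45 in mutant negative cells. The epithelium and endoderm list was not high there, at 8.25 to 8.98 in mutant positive and 8.64 to 9.01 in wild-type positive cells. On the negative arrays that list had 9.74 to 10.51. The part of these lists was not tested.

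Fgfr2, a receptor of epithelia and mesenchyme, had 9.97, 8.90 and 9.03 in wild-type positive, 10.38, 10.07 and 10.57 in wild-type negative, 10.11, 10.03 and 10.42 in mutant positive and 10.44, 10.53 and 10.60 in mutant negative cells. Wild-type positive arrays 2 and 3 were the lowest of the 12, and array 1 lay just under the lowest array of the other groups. Fgfr2 fell by 1.04 ± 0.24 log2 in wild-type positive against negative cells (adjusted p = 0.0211). Dropping array 2 or 3 of the wild-type positive group, or 1 or 3 of the wild-type negative group, ended that call (adjusted p 0.0722 to 0.0897), as did a fit of these groups alone (0.0761). Between mutant and wild-type positive cells it rose by 0.89 ± 0.24 (adjusted p = 0.0476), a call that dropping any 1 array ended (adjusted p 0.0569 to 0.146), except array 1 of the wild-type positive group, without which the difference was 1.22 (adjusted p = 0.00146). Without it the interaction of Fgfr2 was 1.04 (adjusted p = 0.0332), against 0.70 ± 0.34 with all arrays (adjusted p = 0.452). Fgfr2 had 3 probe sets, and only the brightest is given by array. Over the alternatives described below, its wild-type sort difference ranged from -1.37 to -0.53 log2. The difference between the positive groups ranged from 0.42 to 1.22, and the interaction from 0.20 to 1.04.

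Fgfrl1, a receptor-like protein without a kinase domain, had 10.36, 10.52 and 10.53 in wild-type positive, 10.80, 10.67 and 10.92 in wild-type negative, 10.93, 11.01 and 10.83 in mutant positive and 10.89, 10.68 and 10.76 in mutant negative cells. The wild-type positive arrays were the lowest of the 12. Fgfrl1 rose by 0.46 ± 0.10 log2 in mutant against wild-type positive cells (adjusted p = 0.0183), a call ended by dropping array 1 of the wild-type positive group (0.0633) or array 1 (0.0565) or 2 (0.0648) of the mutant positive group. In wild types the sort difference was -0.33 ± 0.10 (adjusted p = 0.0775). The dimmer probe set gave larger differences, 0.98 ± 0.16 between the positive groups and -0.80 ± 0.16 in wild types (adjusted p = 0.00482 and 0.0138 over all probe sets).

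Fgfr1, the main FGF receptor of early mesoderm, had 9.73, 9.52 and 9.53 in wild-type positive, 9.87, 9.99 and 9.72 in wild-type negative, 9.43, 11.02 and 9.66 in mutant positive and 9.39, 9.88 and 10.004 in mutant negative cells. Apart from 11.02 on mutant positive array 2, all values lay within 9.39 to 10.004. No difference passed, with 0.44 ± 0.33 between the positive groups (95% confidence interval -0.28 to 1.17). Fgfr4 had 7.14, 7.06 and 7.16 in wild-type positive, 7.14, 7.004 and 7.02 in wild-type negative, 7.08, 7.06 and 7.06 in mutant positive and 7.32, 7.23 and 7.06 in mutant negative cells. Its 12 values lay between 7.004 and 7.32, and none of its differences passed. A dimmer probe set (mean 6.98) was lower in mutant positive than negative cells, at 6.86, 6.65 and 6.75 against 7.12, 7.57 and 7.25, a difference of -0.56 ± 0.13 (adjusted p = 0.0370 over all probe sets).

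Among the inhibitors, Spry1 passed in 1 comparison and the other 7 in none. Spry1, a cytosolic brake on receptor signalling, had 9.16, 9.06 and 9.12 in wild-type positive, 9.61, 9.77 and 9.79 in wild-type negative, 9.47, 9.55 and 9.07 in mutant positive and 9.78, 9.68 and 9.48 in mutant negative cells. It fell by 0.61 ± 0.13 log2 in wild types (adjusted p = 0.0147), a call ended by dropping array 2 (0.0584) or 3 (0.0608) of the wild-type negative group or both wild-type arrays numbered 1 (0.0628). In mutants the difference was -0.28 ± 0.13 (adjusted p = 0.337), and the interaction of 0.32 ± 0.19 did not pass (adjusted p = 0.56).

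Dusp6, the ERK phosphatase widely read as a sign of FGF signalling, had 11.15, 11.38 and 11.24 in wild-type positive, 10.74, 10.71 and 10.85 in wild-type negative, 11.30, 10.91 and 10.30 in mutant positive and 10.80, 11.12 and 10.34 in mutant negative cells. The wild-type groups did not overlap, and the mutant groups each spread over more than 0.7 log2. The wild-type difference of 0.49 ± 0.24 did not pass (adjusted p = 0.296; 95% confidence interval -0.03 to 1.01), except in a fit of those 2 groups alone (adjusted p = 0.0326).

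Spry2 had 9.41, 9.63 and 9.29 in wild-type positive, 10.01, 9.86 and 9.44 in wild-type negative, 9.26, 9.93 and 8.61 in mutant positive and 9.59, 10.29 and 9.88 in mutant negative cells. The groups overlapped in both genotypes, and the mutant sort difference was -0.65 ± 0.29 (adjusted p = 0.313). Spry4 had 6.53, 6.86 and 6.78 in wild-type positive, 6.96, 6.78 and 6.79 in wild-type negative, 7.01, 6.91 and 6.65 in mutant positive and 7.28, 6.92 and 7.44 in mutant negative cells, with differences of -0.12, -0.36, 0.13 and 0.37 in the 4 comparisons, none passing. Spred1, Spred2 and Spred3 did not overlap between mutant positive and negative cells and were lower in positive cells by differences of -0.49, -0.13 and -0.75 (adjusted p 0.182 to 0.701). Frs3, an adaptor, did the same at -0.22 (adjusted p = 0.518). Spry3 lay between 5.46 and 6.43, with its largest difference, -0.49, between mutant and wild-type negative cells (adjusted p = 0.929).

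Negative cells of mutant and wild-type embryos gave 0 calls among the 36 genes, and limma called 0% of all genes. At an unadjusted p under 0.05 there were 5 FGF genes and 949 of 18193 genes. Fgf15 was higher on all 3 mutant negative than on all 3 wild-type negative arrays, by 1.23 ± 0.33 log2 (95% confidence interval 0.49 to 1.96; adjusted p = 0.909). The arrays did not overlap for 7 of the 36 genes, against 11.2% of all genes, with 5 higher and 2 lower in mutants (7.2% and 4.01% of all genes).

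The test of whether the sort difference changed with genotype also called 0 of the 36 genes, against 2.58% of all genes (0.973% above and 1.61% below 0). At an unadjusted p under 0.05 in this test there were 4 of the 36 FGF genes and 2234 of 18193 genes. The main fit used here has no replicate block, and with the block within genotype the interaction of Fgfr3 passed. Falls of Fgf15 and Fgf18 in both genotypes differed by -0.66 (95% confidence interval -1.69 to 0.38) and -0.14 (-0.69 to 0.41).

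**Figure D5:**
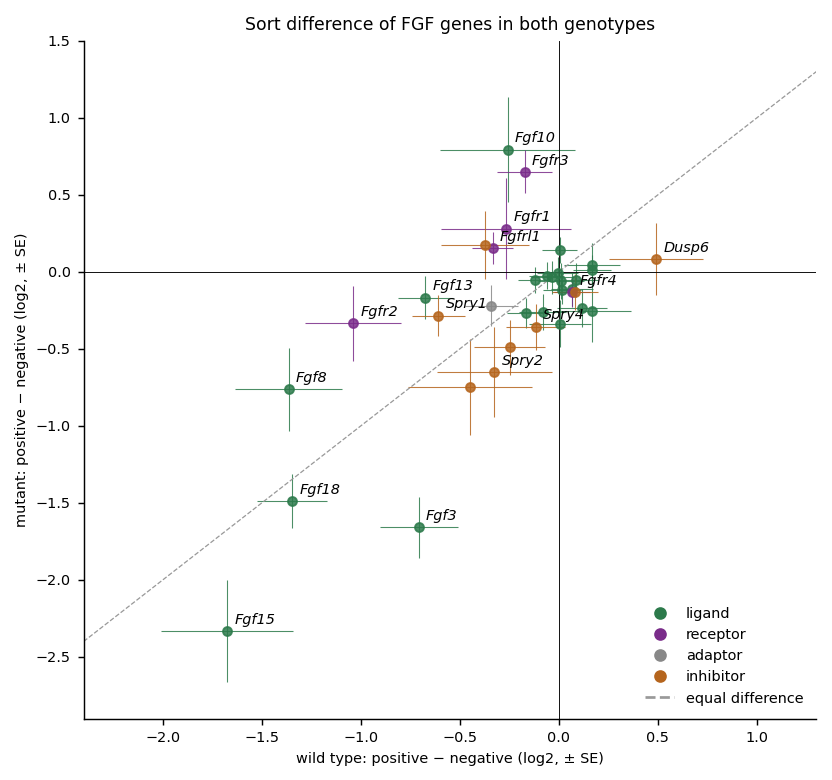
Positive minus negative difference (log2, ± SE, 3 against 3 arrays) of the 36 FGF genes in wild types (x axis) and in mutants (y axis), coloured by role, with the line of equal differences dashed. Fgf18 lies near the line at low left, Fgf15 and Fgf3 below it, and Fgfr1, Fgfr3, Fgfrl1 and Fgf10 above it. No distance from the line passed the interaction test of the main fit, which has no replicate block.

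Other genes of the pathway were read from lists, whose counts stand against 8.24% of all genes called in the wild-type sort comparison, 5.36% in the mutant one and 7.97% between the positive groups. Of 18 co-receptor and heparan sulphate genes, 3 fell in wild-type positive cells, 1 fell in mutant positive against negative cells, and 3 rose in mutant against wild-type positive cells (16.7%, 5.56% and 16.7% of the list). Gpc1, a cell-surface heparan sulphate proteoglycan, fell by 0.83 ± 0.14 log2 in wild types (adjusted p = 0.00252) and rose by 0.80 ± 0.14 in mutant over wild-type positive cells (adjusted p = 0.0038). Its values were 9.34, 9.22 and 8.98 in wild-type positive cells and 9.64 to 10.20 on the other 9 arrays. Sdc4, a syndecan, and Flrt3, a membrane partner of FGF receptors, fell in wild types by 1.23 ± 0.33 and 0.84 ± 0.20 (adjusted p = 0.0437 and 0.0223). Flrt1 fell in mutants by 0.38 ± 0.10 (adjusted p = 0.0422). Sdc2 and Ugdh, whose product supplies the sugar for heparan sulphate, rose between the positive groups by 0.59 ± 0.16 and 0.77 ± 0.16 (adjusted p = 0.0416 and 0.0124).

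Of 14 adaptor and Ras-ERK core genes, 4 passed in the wild-type sort comparison (28.6%), all as rises, and 1 fell between the positive groups (7.14%). Gab1, a docking protein used by several receptor kinases, had 10.29, 10.21 and 10.48 in wild-type positive cells, and its other 9 values were 8.37 to 9.45. It rose by 1.55 ± 0.17 log2 over wild-type negative cells (adjusted p = 0.000151) and fell by 1.19 ± 0.17 in mutant against wild-type positive cells (adjusted p = 0.00137). Gab2, a relative of Gab1, rose by 1.26 ± 0.29, the adaptor Shc1 by 0.78 ± 0.16 and the phospholipase Plcg1 by 0.41 ± 0.10 in wild types (adjusted p 0.00925 to 0.034). The other core genes did not pass in wild types, and 0 of 14 passed in mutants.

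Of 17 ERK-responsive genes and negative regulators outside the members, 1 rose and 1 fell in wild types, 2 rose in mutant positive against negative cells, and 2 rose and 1 fell in mutant against wild-type positive cells (11.8%, 11.8% and 17.6% of the list). Il17rd, the membrane inhibitor also called Sef, fell by 1.06 ± 0.16 log2 in wild types (adjusted p = 0.00157) and rose by 0.78 ± 0.16 between the positive groups (adjusted p = 0.0117). Its values were 10.44, 9.99 and 10.65 in wild-type positive cells and 10.92 to 11.64 elsewhere. Etv5, an ETS factor induced by FGF in many tissues, rose by 0.85 ± 0.16 between the positive groups (adjusted p = 0.00656), while its relative Etv4 differed by 0.03 (adjusted p = 0.928). Rasa1, a Ras GTPase-activating protein, fell there by 0.59 ± 0.13 (adjusted p = 0.0189). The immediate early gene Egr1 rose in positive cells, by 1.64 ± 0.28 in wild types and 1.19 ± 0.28 in mutants (adjusted p = 0.00367 and 0.0318), and Fos rose in mutants by 1.26 ± 0.31 (adjusted p = 0.0399). With the replicate block within genotype, 7 rather than 3 of the 49 genes of these 3 lists passed in mutants.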

How the data were processed

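The deposited table holds log2 expression values that the authors made with RMA, per the submitters' processing notes; for its settings and the genome build, the sources used here give nothing. RNA was amplified and labelled with the MessageAmpII-Biotin Enhanced Kit, per the labels. Values of 45101 probe sets on 12 arrays were used as given. Of these, 64 controls, 932 with several symbols and 9160 not listed in the platform table were left out. The other 34945 were reduced to the brightest per gene, dim ones included. The median of an array was 6.98 to 7.06. Precision is limited by having 3 arrays per group.

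Differences were fitted with limma 3.58.1 (R 4.3.3) in 1 model of the 4 groups, with 8 residual degrees of freedom and two-sided tests. This main fit had no replicate block, so its SE and p-values do not use the pairing of fractions described below. The procedure itself was first tested on simulated data, and all values given are from the 12 arrays. The members, gene lists and tests were chosen with earlier results of these data known. The named genes are those past the threshold in any comparison plus a fixed set, with up to 4 per pathway list and comparison. Gene names come from GEO's platform annotation and promoter windows from RefSeq (GRCm38.p6). In the pathway lists, 7 genes had no match.

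Whether replicate numbers pair samples was checked by how the positive and negative array of each number departed from their groups' means. These departures correlated across genes at 0.10 to 0.20 in wild types and 0.40 to 0.55 in mutants, so the numbers were read as pairing the fractions within each genotype; this comes from the data, since the labels do not state it. Between genotypes the values were -0.24 to 0.00.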

Additional observations from a re-analysis of the deposited data

Results flagged for a closer look

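3 genes were picked out for their sort differences in the 2 genotypes, 2 by the interaction test and 1 by opposite signs alone. Gpc1 had an interaction of 1.02 ± 0.19 log2 (limma, adjusted p = 0.0158): it was lower in wild-type positive than negative cells and differed by 0.18 in mutants. Gab1 had an interaction of -1.15 ± 0.24 (limma, adjusted p = 0.0309): it was higher in wild-type positive cells by 1.55, and differed by 0.41 in mutants. Fgfrl1 was lower in the positive array of every same-numbered wild-type pair (-0.45, -0.15 and -0.40) and higher in that of every mutant pair (0.05, 0.34 and 0.08). Its interaction was 0.49 ± 0.15 and did not pass (limma, adjusted p = 0.134), and the signs over pairs were not tested. Fgfrl1 was picked for these signs, and the share of all genes that show them was not computed. Whether the pattern is unusual therefore cannot be said.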

How the results depend on the processing

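Across 23 alternatives, 5 of the 15 calls of FGF genes were kept in each that gave a value: Fgf15, Fgf18 and Fgf3 in mutants, and Fgf18 and Fgf8 in wild types. The other 10 were lost in at least 1. The count in wild types was 4 to 7 when single arrays were left out, 3 without both wild-type arrays numbered 1, and 10 with the mean of all probe sets. Between the positive groups it was 2 to 3 without single arrays, 1 in a fit of those groups alone and 2 without both wild-type arrays numbered 1. In mutants it was 3 to 4 without single arrays and 7 with the mean of all probe sets. For the interaction it was 0 to 2 without single arrays, 2 with the mean of all probe sets, and 1 with the replicate block within genotype, the replicate block across all groups or array weights. In negative cells it was 0 throughout. The cause was not tested.

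The replicate block within genotype was fitted only for the sort comparisons and the interaction, not for mutant against wild-type cells. There it changed no FGF call other than Fgf8 in mutants and the Fgfr3 interaction. With this block, 1486 rather than 975 of all genes passed in mutants and 797 rather than 469 for the interaction. Fitting the positive groups alone gave 844 rather than 1450, and leaving out both wild-type arrays numbered 1 gave 760 rather than 1499 in wild types. Over all alternatives, the 49 other pathway genes gave 4 to 13 calls in wild types (9 in the report), 0 to 7 in mutants (3), 4 to 10 between the positive groups (7) and 1 to 3 for the interaction (2). The sign of Fgf17 in wild types (0.01) turned to -0.96 with the mean of all probe sets, -0.0088 with array weights, and ranged from -0.17 (without wild-type positive array 3) to 0.14 when single arrays were left out. That of Fgf14 in mutants (-0.01) was -0.47 and passed with the mean of all probe sets, turned to 0.035 with repeated quantile normalization, and ranged from -0.057 to 0.064 (without mutant negative array 1) when single arrays were left out.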
